A study of Caenorhabditis elegans with 2 samples.

Results

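The calls described here are the 2446 ZK546.5 ChIP-seq calls that fell inside the 2 piRNA gene clusters of Caenorhabditis elegans chromosome IV. A call was taken as a member when its summit, the position of highest signal, lay between 4500 and 7000 kb or between 13500 and 17200 kb of chromosome IV on build ce11 in the list pooled from both replicates. The members made up 2446 of the 5711 calls on chromosome IV and of 30000 calls in the whole list, with 888 in the smaller cluster and 1558 in the larger one. The remaining 3265 calls of chromosome IV served as the comparison. The rule used position alone and no measured value.

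The study measured where ZK546.5, a protein assayed as a transcription factor, was found on DNA in third-stage (L3) larvae, using chromatin immunoprecipitation followed by sequencing (ChIP-seq) of sonicated chromatin. The strain was OP231, with the genotype unc-119(ed3) III; wgIs231, in which a stably expressed transgene carries ZK546.5 fused at its C terminus to GFP-FLAG. Whole animals, pooled male and female, were used, so that signal from different tissues cannot be told apart, and the tagged copy comes from the transgene. There was 1 group of 2 biological replicates, both called against the same control file per the deposited file notes, and no second genotype, stage or treatment.

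Each list stopped at 30000 calls and holds background as well as peaks. The authors' thresholded set held 261 calls of the pooled list. It was made with the irreproducible discovery rate (IDR) procedure, which compares how replicates rank their calls. In the clusters, the thresholded calls were the members ranked 1 to 261 in the pooled list, including some ranked low in a single replicate. Read depth is unknown from these lists. With 1 group and with calls that are not replicates of a condition, no test was made, and spread is given as the values of both replicates. Exact binomial (Clopper-Pearson) 95% intervals are given for shares and cover counting error only.

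Piwi-interacting RNAs of C. elegans, also named 21U-RNAs, are short germline RNAs that bind the Piwi protein PRG-1 and guide the silencing of foreign sequences. Most of their genes, named 21ur-, lie in clusters on chromosome IV, where each is transcribed as its own short unit with the help of SNPC-4, PRDE-1, TOFU-4 and TOFU-5. Many carry an upstream promoter motif with the core CTGTTTCA, and the clusters are known to be rich in A and T.

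The label of the clusters held in the annotation. The clusters contained 14204 annotated piRNA genes, 2816 in the smaller and 11388 in the larger one, against 510 in the rest of chromosome IV and 649 on the other chromosomes. Per Mb this was 2291 piRNA genes in the clusters and 45.2 in the rest of the chromosome, while protein-coding genes were sparser in the clusters, at 152 per Mb against 207. Of the cluster piRNA genes, 96.2% began with T on their own strand, which is the U of a 21U-RNA.

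Sequences around 6 summits, picked for high signal, are given as examples and do not stand for the typical member. The first belongs to the strongest member, beside the protein-coding gene sqd-1, and the other 5 are the strongest members for which a piRNA gene had the nearest annotated 5′ end, within 500 bp. All are plus-strand sequence of chromosome IV on ce11, from the RefSeq copy of the assembly, 100 bases to each side of the summit. The 21ur-3089 window was shortened to 189 bases to leave out annotated untranslated exon. Capitals mark annotated 21-base piRNAs, read on either strand, and every match to CTGTTTCA or its reverse complement TGAAACAG.
sqd-1, chrIV:6323761-6323961: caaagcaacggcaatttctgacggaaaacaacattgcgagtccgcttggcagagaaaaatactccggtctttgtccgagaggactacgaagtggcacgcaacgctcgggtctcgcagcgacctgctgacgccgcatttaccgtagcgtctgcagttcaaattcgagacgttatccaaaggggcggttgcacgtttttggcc
21ur-3089, chrIV:5747111-5747299: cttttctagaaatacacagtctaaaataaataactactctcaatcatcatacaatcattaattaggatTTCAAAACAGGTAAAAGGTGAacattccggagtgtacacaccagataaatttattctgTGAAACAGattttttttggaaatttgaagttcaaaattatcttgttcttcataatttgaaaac
21ur-252, chrIV:15473927-15474127: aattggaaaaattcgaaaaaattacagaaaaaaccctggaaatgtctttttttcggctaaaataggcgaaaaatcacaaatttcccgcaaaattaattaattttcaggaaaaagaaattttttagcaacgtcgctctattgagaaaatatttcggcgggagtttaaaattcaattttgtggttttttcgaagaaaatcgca
21ur-5565, chrIV:17017805-17018005: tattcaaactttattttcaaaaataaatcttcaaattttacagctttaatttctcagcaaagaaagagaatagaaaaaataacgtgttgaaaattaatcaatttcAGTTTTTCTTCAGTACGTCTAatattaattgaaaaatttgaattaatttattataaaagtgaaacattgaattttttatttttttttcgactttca
21ur-13862, chrIV:14307130-14307330: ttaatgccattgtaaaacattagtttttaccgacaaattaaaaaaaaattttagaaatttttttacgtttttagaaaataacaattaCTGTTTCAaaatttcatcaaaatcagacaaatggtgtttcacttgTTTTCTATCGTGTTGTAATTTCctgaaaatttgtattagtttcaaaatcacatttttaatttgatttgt
21ur-6088, chrIV:16570406-16570606: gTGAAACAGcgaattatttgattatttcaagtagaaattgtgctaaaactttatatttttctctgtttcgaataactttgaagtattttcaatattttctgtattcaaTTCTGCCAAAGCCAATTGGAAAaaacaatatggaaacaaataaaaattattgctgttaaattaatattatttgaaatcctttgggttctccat
The sqd-1 window had neither a piRNA nor the octamer and a GC content of 53.7%, whereas the 5 windows beside piRNA genes had GC contents of 19.4% to 29.9%. Over all members the classes were closer. Mean GC content at the summit was 33.3% ± 6.96 (SD over 213 calls) for members near a coding 5′ end only (500 bp or less). It was 27.0% ± 4.49 (SD over 1335 calls) for those near a piRNA 5′ end only (200 bp or less). The 21ur-3089 and 21ur-13862 windows held a piRNA together with its upstream octamer. The octamer in the 21ur-6088 window lay on the other strand from 21ur-6088, outside its upstream stretch, and the 21ur-252 and 21ur-5565 windows had none, and no annotated piRNA lay inside the 21ur-252 window. The capitals of the 21ur-13862 window cover 2 annotated piRNAs offset by a single base, 21ur-13862 and 21ur-8193, and those of the 21ur-6088 window cover 21ur-6088 and 21ur-14965 in the same way.

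Calls were denser in the clusters than in the rest of the chromosome. The clusters held 394.5 calls per Mb in the pooled list, 385.6 in replicate 1 and 360.2 in replicate 2, against 289.1, 290.1 and 298.4 calls per Mb in the rest of chromosome IV. The replicate means were 373 ± 18.0 (SD, n = 2) in the clusters and 294 ± 5.89 (SD, n = 2) in the rest, and the 2 pairs of replicate values did not overlap. Taken within each replicate, the difference was 95.6 calls per Mb in replicate 1 and 61.8 in replicate 2 (SD 23.9, n = 2). The larger cluster, which is also the denser in piRNA genes, had 421, 414 and 372 calls per Mb in the pooled, replicate 1 and replicate 2 lists, and the smaller one 355, 343 and 343. The 6.5 Mb between the clusters held 280 calls per Mb in the pooled list, close to the rest of the chromosome as a whole.

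**Figure D1:**
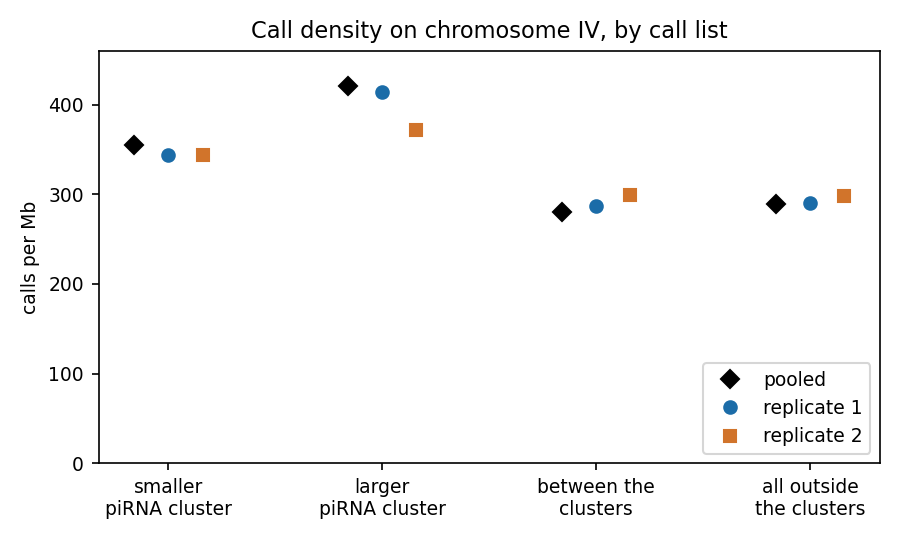
Calls per Mb (vertical axis) in the smaller and larger piRNA cluster, between them and in the rest of chromosome IV, for the pooled list and each replicate's list. In both replicates each cluster lies above the rest of the chromosome, whose replicate values were 290.1 and 298.4.

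The bounds of the clusters are round positions, and the calls did not step sharply at each of them. In the pooled list, the 250 kb just inside and just outside the bound held 96 and 60 calls at 4500 kb, 79 and 72 at 7000 kb, 89 and 80 at 13500 kb, and 94 and 101 at 17200 kb. The piRNA genes in the same stretches numbered 2 and 9 at 4500 kb, 112 and 25 at 7000 kb, 428 and 5 at 13500 kb, and 443 and 169 at 17200 kb. The first stretch of the smaller cluster therefore held many calls and almost no piRNA genes.

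Within the clusters, calls were densest close to piRNA genes. Sequence within 200 bp of a piRNA 5′ end held 524 calls per Mb in the pooled list, 535 in replicate 1 and 446 in replicate 2. Sequence over 1000 bp from any piRNA 5′ end held 251, 238 and 267 calls per Mb, which in every list was below the rest of chromosome IV as a whole. At 201 to 500 bp the density was 358 per Mb in the pooled list, and at 501 to 1000 bp it was 273. The step was seen in each cluster, with 489 against 258 calls per Mb in the smaller cluster and 536 against 242 in the larger one for the nearest and farthest sequence. Between these ranges the fall was uneven. In the larger cluster the lowest density was at 501 to 1000 bp, at 196, 167 and 181 calls per Mb in the pooled, replicate 1 and replicate 2 lists. In the smaller cluster the pooled list had 364 at 201 to 500 bp and 358 at 501 to 1000 bp. When sequence within 500 bp of protein-coding 5′ ends was set aside, the densities from nearest to farthest were 527, 364, 265 and 223 per Mb in the pooled list.

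**Figure D2:**
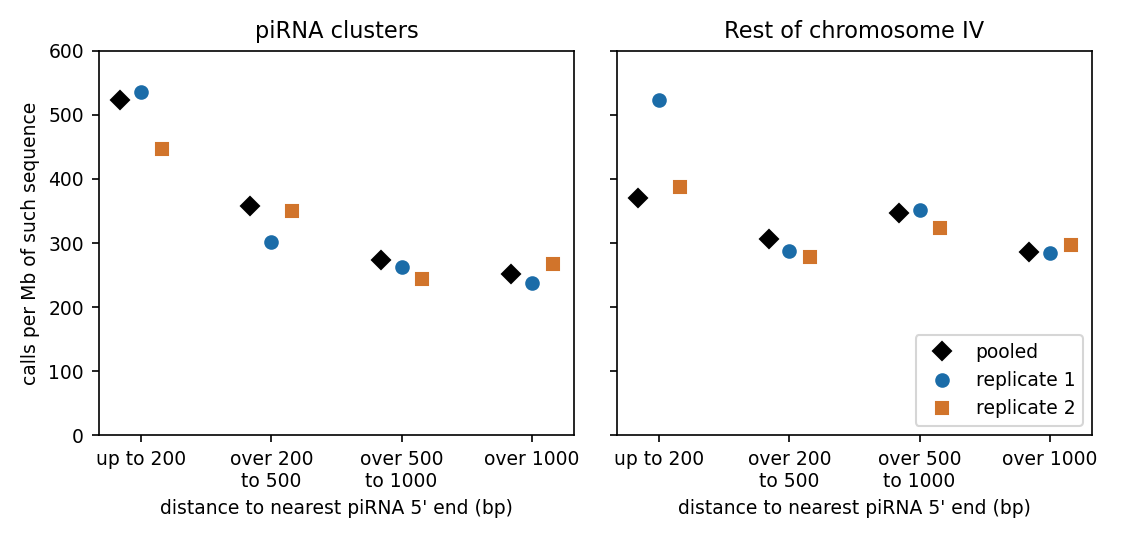
Calls per Mb (vertical axis) at 4 ranges of distance from the nearest piRNA 5′ end, in the clusters (left) and the rest of chromosome IV (right), for the pooled list and each replicate. In the clusters density is highest within 200 bp in all 3 lists, at 524, 535 and 446 calls per Mb.

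In shares, 1474 of the 2446 members, or 60.3% (interval 58.3 to 62.2), had a summit within 200 bp of a piRNA 5′ end, against 45.4% of cluster bases. The same share was 63.0% in replicate 1 and 56.2% in replicate 2, both above the share of bases. Over all nuclear calls the share was 5.43%, with most annotated piRNA genes lying in these clusters. In the rest of chromosome IV, 1.93% of calls and 1.51% of bases lay within 200 bp of a piRNA 5′ end. The median distance from a summit to the nearest piRNA 5′ end was 132.5 bp in the clusters and 18371 bp in the rest of the chromosome, beside the 2291 and 45.2 piRNA genes per Mb given above.

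Base composition moved with closeness to piRNA genes. Windows of 200 bases tiled over the clusters had a mean GC content of 33.0%, against 35.5% over the rest of chromosome IV, and cluster windows centred within 200 bp of a piRNA 5′ end had 29.5%, against 35.9% for the other cluster windows. Windows at the calls themselves were lower again, at 29.0% ± 6.09 (SD over 2446 calls) in the clusters and 31.5% ± 6.80 (SD over 3265 calls) in the rest. Outside the clusters, too, call density rose as GC content fell, from 142 calls per Mb in windows of 40% GC or more to 762 per Mb in those below 25% in the pooled list. In replicate 2 that range was narrower, from 232 to 434 calls per Mb.

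When cluster windows were weighted to the GC content of the rest of the chromosome, a setting chosen after the data were seen, most of the density difference in the pooled list was gone. The weighted density of the clusters was 318 calls per Mb in the pooled list, 309 in replicate 1 and 327 in replicate 2, against 289, 290.3 and 298 in the rest. The difference in the pooled list thus went from 105 to 29.1 calls per Mb. Split by distance, weighted windows within 200 bp of a piRNA 5′ end held 372, 369 and 389 calls per Mb in the 3 lists, and those farther away held 281, 264 and 289, below the rest of the chromosome in each list. The weights for the near windows covered 95.9% of the rest-of-chromosome windows.

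Within bands of equal GC content, windows near piRNA genes had more calls than both other classes in all 15 combinations of 5 bands and 3 lists. At 25% to 30% GC, near windows held 577 calls per Mb in the pooled list, far cluster windows 425 and the rest of the chromosome 489. In replicate 2 the same band held 471, 318 and 409 calls per Mb. Far cluster windows exceeded the rest of the chromosome in only 5 of the 15 combinations. The bands are several percent wide, the lists share a control, and the pooled list is made from both replicates, so the 15 combinations are not independent. The parts that mappability, open chromatin and the control play in these densities were not tested.

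**Figure D3:**
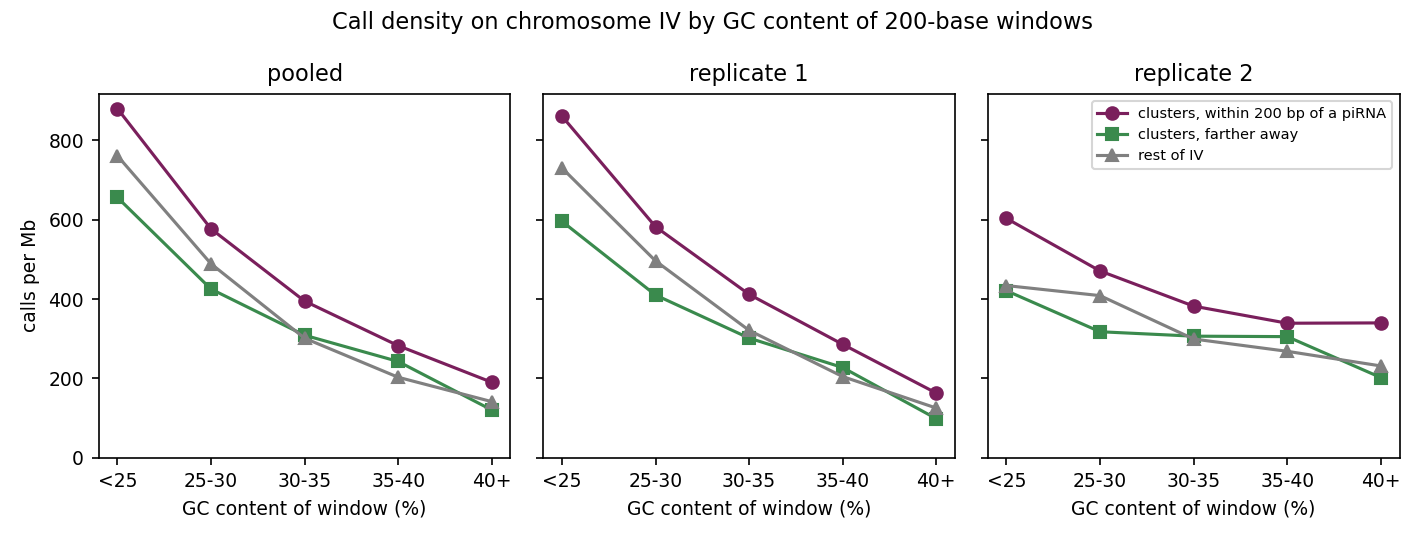
Calls per Mb (vertical axis) against the GC content of 200-base windows (horizontal axis, 5 bands) for cluster windows near a piRNA 5′ end, cluster windows farther away and the rest of chromosome IV, 1 panel per list. Density falls from the lowest GC band to that of 35% to 40% in every class and list, and near windows lie highest in all 15 combinations of band and list.

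The position of calls relative to piRNA 5′ ends was broad. Counting each summit against every piRNA gene within reach on the gene's own strand, the pooled list was densest at 150 to 101 bp upstream, at 651 calls per Mb, and had 479 and 459 at the outermost 50-bp steps, 500 bp upstream and downstream. Replicate 1 was densest at 100 to 51 bp upstream, at 648 calls per Mb. Replicate 2 had no clear maximum, with 397 to 484 calls per Mb over the whole range. Neighbouring piRNA genes lay a median of 187 bp apart, so that a single summit was counted against several genes. For the 696 genes with no other piRNA 5′ end within 500 bp, the maximum was not upstream alone. The steps 100 to 51 bp upstream and 0 to 49 bp downstream were equally high, at 575 calls per Mb in the pooled list and 661 in replicate 1. They held 20 and 23 calls each in these lists. Replicate 2 was highest at 350 to 399 bp downstream, at 603 calls per Mb from 21 calls.

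**Figure D4:**
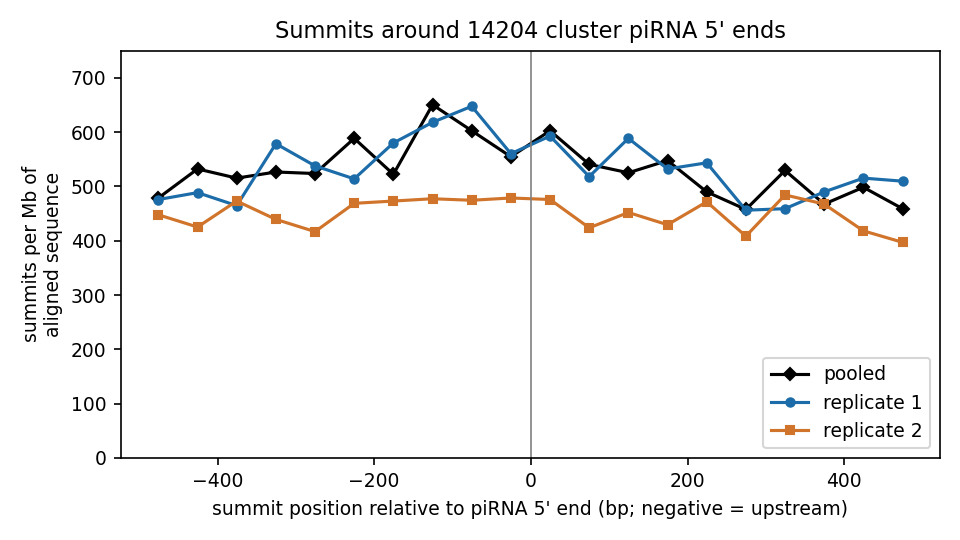
Calls per Mb (vertical axis) in 50-bp steps of distance from piRNA 5′ ends (horizontal axis, bp, negative upstream) over the 14204 cluster piRNA genes, for the pooled list and each replicate. The pooled list and replicate 1 are highest upstream of the 5′ end, at 651 and 648 calls per Mb, and replicate 2 stays between 397 and 484. A summit near several genes is counted for each of them.

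The promoter octamer was common near members but did not separate piRNA genes with calls from those without. Of the members, 20.7% (interval 19.1 to 22.4) had CTGTTTCA on either strand within the 200-base window at their summit, against 14.5% of windows tiled over the clusters. In the rest of chromosome IV the shares were 1.99% of calls and 1.52% of tiled windows. Much of this went with closeness to piRNA genes, since 31.6% of members near a piRNA 5′ end and away from coding 5′ ends had the octamer, against 27.8% of all tiled windows within 200 bp of a piRNA 5′ end.

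Among the 14204 cluster piRNA genes, 4944 (34.8%) had the octamer in the 60 bases upstream on their own strand, starting at a median of 46 bp before the 5′ end. A pooled call lay within 250 bp of 26.3% (interval 25.1 to 27.5) of the genes with the octamer and of 27.3% (interval 26.4 to 28.2) of those without it. In replicate 1 the shares were 26.5% and 28.2%, and in replicate 2 they were 22.8% and 21.8%, so the order was not the same in both replicates. Neighbouring genes share calls, which these intervals do not take into account. A thresholded call lay within 250 bp of 1 of the 14204 genes.

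In the pooled list the density ratio between the clusters and the rest was highest at ranks 262 to 3000, just below the 261 strongest calls, and fell toward the weaker calls. Calls were ranked by the deposited signal value, with rank 1 the strongest. Among ranks 1 to 261, the clusters held 2.097 calls per Mb and the rest of the chromosome 2.125 in the pooled list, a ratio of 0.987, and the replicate ratios were 1.50 and 0.911. The replicate ratios came from 14 and 17 calls in replicate 1, and from 12 and 24 calls in replicate 2. Among ranks 262 to 1000 the pooled ratio was 1.72, from 68 and 72 calls, and among ranks 1001 to 3000 it was 1.81, from 228 and 230 calls. The ratio was 1.48 at ranks 3001 to 10000, 1.40 at ranks 10001 to 20000 and 1.15 at ranks 20001 to 30000. In replicate 2 the ratios below rank 261 were smaller and flatter, from 1.15 to 1.34.

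**Figure D5:**
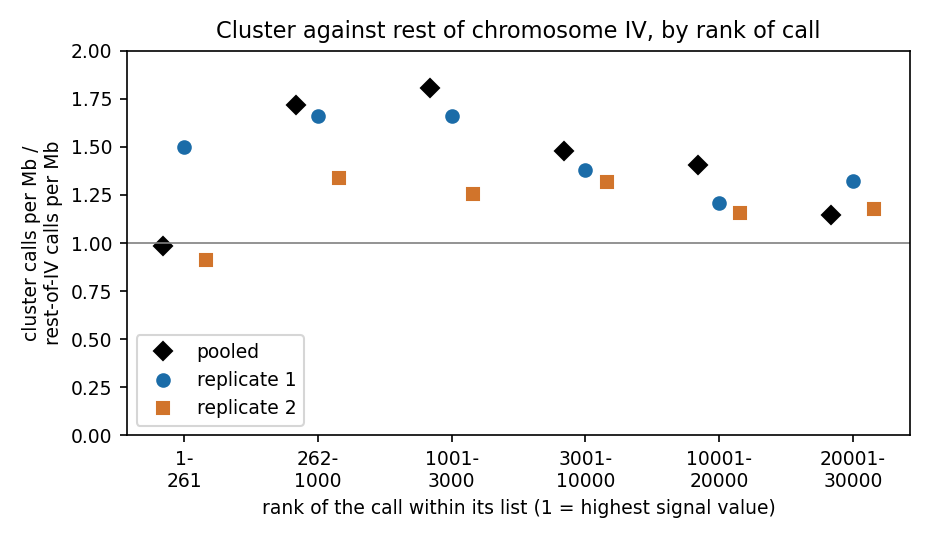
Cluster call density divided by that of the rest of chromosome IV (vertical axis) in 6 bands of rank by signal value (horizontal axis), for the pooled list and each replicate. The pooled ratio is 0.987 among ranks 1 to 261 and highest, at 1.81, among ranks 1001 to 3000.

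Closeness to piRNA genes was least frequent in the top band in all 3 lists. Of the members at ranks 1 to 261, 7.69% (1 of 13) lay within 200 bp of a piRNA 5′ end, against 51.5% at ranks 262 to 1000 and 66.2% both at ranks 1001 to 3000 and at ranks 3001 to 10000. The share was 56.0% at ranks 20001 to 30000. In replicate 1 it was 14.3% (2 of 14) in the top band and 60.7% to 66.6% in the bands below. It was highest at ranks 10001 to 20000, where the density ratio was lowest at 1.21. In replicate 2 it was 0% (0 of 12) in the top band and 48.0% to 59.5% below. The median rank was 13735 for the members and 15447 for the rest of chromosome IV in the pooled list, 14335 and 14867 in replicate 1, and 14573 and 15083 in replicate 2. This order turned when only the strongest 5000 calls were kept, where the median member stood at the 53.6 percentile from the top and the median call of the rest at 47.0.

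Sorted by neighbour, 1335 members (54.6%) lay within 200 bp of a piRNA 5′ end only, 213 near a protein-coding 5′ end only (500 bp or less), 139 near both and 759 near neither. The median ranks of these classes were 12522, 13376, 12948 and 15938. The strongest member near a piRNA 5′ end only had a signal value of 54.2, and the strongest near a coding 5′ end only had 1057. The 31 piRNA-only members among the 1000 strongest calls made up a smaller fraction of their class than the 19 coding-only members did of theirs.

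The thresholded set held 13 of the members, 8 in the smaller cluster and 5 in the larger one. They are the same 13 calls as the members at ranks 1 to 261 of the pooled list described above. This was 0.531% (interval 0.283 to 0.907) of the members, against 24 calls or 0.735% in the rest of chromosome IV and 0.87% of all pooled calls. Of the 13, 9 were no more than 500 bp from a coding 5′ end and 1 no more than 500 bp from a piRNA 5′ end. In the rest of chromosome IV, 19 of 24 lay near a coding 5′ end and none near a piRNA 5′ end.

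The strongest member lay 313 bp upstream of sqd-1, an RNA-binding protein gene. Its signal value was 1057 in the pooled list (rank 8), 413 in replicate 1 (rank 13) and 649 in replicate 2 (rank 6). Signal scales differ between lists, so ranks are the measure to compare, and this call stood among the strongest 13 in all 3. In the pooled list it ranked above the 3 strongest calls of the rest of chromosome IV, while in replicate 1 the C08F8.13 call, at rank 9, stood ahead of it. Those 3 calls lay beside the non-coding RNA gene C08F8.13 (rank 11), wapl-1 (rank 13), which encodes a factor that releases cohesin, and dpm-3 (rank 21), a subunit gene of dolichol-phosphate mannose synthase. The C08F8.13 call also lay 290 bp upstream of the protein-coding gene F01G4.6.

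The next member was 175 bp upstream of Y17G9B.5, with a signal value of 329 (rank 49) in the pooled list and ranks 49 and 41 in replicates 1 and 2. The call 18 bp upstream of Y73B6BL.29 had a signal value of 119 (rank 94), and its replicate ranks were 78 and 133. It lay on the same stretch as the sqd-1 call. A call 231 bp upstream of the non-coding RNA gene WBGene00195021 had a signal value of 110 (rank 101), with replicate ranks of 85 and 178. These calls kept high ranks in both replicates.

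Further thresholded members lay upstream of F29B9.11 (signal 91.8, rank 125), of ntl-11 (signal 86.2, rank 132), which encodes a subunit of the CCR4-NOT deadenylase complex, and of perm-3 (signal 74.9, rank 160), a gene needed for the eggshell's permeability barrier. The member upstream of mrps-7 (signal 55.1, rank 240), a mitochondrial ribosomal protein gene, ranked 983 in replicate 1 and 233 in replicate 2. The member beside the non-coding gene LLC1.120 (signal 60.5, rank 211) also lay 291 bp upstream of dld-1, the dihydrolipoamide dehydrogenase gene. The member beside the non-coding gene WBGene00196813 had a signal value of 62.8 (rank 200).

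Some thresholded members were uneven between replicates. The member upstream of Y73F8A.27 (signal 58.3, rank 223) ranked 2308 in replicate 1 and 230 in replicate 2. The member upstream of the pseudogene WBGene00023323 (signal 82.8, rank 139) ranked 138 in replicate 1 and 2055 in replicate 2.

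The single thresholded member at a piRNA gene had its summit at the 5′ end of 21ur-3089 itself, with the octamer 45 bp upstream of that gene. Its pooled signal value was 54.2 (rank 245). In replicate 1 the signal value was 38.0 (rank 149) with the summit 11 bp away, and in replicate 2 it was 7.38 (rank 21334) with the nearest summit 166 bp away. The call was therefore among the 261 strongest in replicate 1 and in the weaker part of the list in replicate 2, where the median member ranked 14573.

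The next 4 members beside piRNA genes were outside the thresholded set. The member 310 bp downstream of 21ur-252 (signal 50.04, rank 274) ranked 1868 in replicate 1 and 275 in replicate 2, and lay in an intron 367 bp downstream of the 5′ end of Y73F8A.26. The member beside 21ur-5565 (signal 45.5, rank 334) ranked 2208 and 427. The member beside 21ur-13862 (signal 43.8, rank 362) ranked 248 and 5536, and the member beside 21ur-6088 (signal 43.5, rank 370) ranked 610 and 2306. None of these 4 was within the strongest 261 calls of both replicates, and the replicate in which each ranked higher was not the same for all.

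Near protein-coding 5′ ends the share of members equalled the share of bases over the clusters as a whole, but exceeded it away from piRNA genes. Within 500 bp of a coding 5′ end lay 14.4% (interval 13.0 to 15.8) of the members and 14.4% of cluster bases. In the rest of chromosome IV it was 22.9% of calls (interval 21.5 to 24.4) and 19.4% of bases, and 21.1% of all nuclear calls. Replicate 1 gave 14.5% in the clusters and 22.6% in the rest, and replicate 2 gave 15.1% and 22.9%. Among the 606 members over 500 bp from any piRNA 5′ end, 161 or 26.6% (interval 23.1 to 30.3) lay near a coding 5′ end, on 19.1% of such bases. The share was 26.04% in replicate 1 and 26.01% in replicate 2. Outside the clusters it was 23.0% of such calls on 19.3% of bases, so the difference between clusters and rest changed direction in that subset. Of the thresholded members, 69.2% lay near a coding 5′ end.

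By annotated place, 55.2% of members lay outside protein-coding genes, where 50.6% of cluster bases lie. Introns held 33.4% of members on 29.3% of cluster bases, and coding sequence held 7.40%. Coding sequence made up 17.0% of cluster bases. The rest of chromosome IV showed the same lack in coding sequence, with 11.7% of calls on 25.7% of bases. Introns there held 41.4% of calls on 34.7% of bases.

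Replicate support was slightly more frequent among the members. A pooled call counted as supported when both replicate lists had a summit within 200 bp. This held for 24.98% (interval 23.3 to 26.7) of the members, 22.5% (interval 21.1 to 24.0) of the rest of chromosome IV and 22.1% of all pooled calls. It was 23.4% in the smaller cluster and 25.9% in the larger one. By rank band, support in the clusters and in the rest was 86.8% and 80.6% at ranks 262 to 1000, 57.5% and 58.7% at ranks 1001 to 3000, 37.8% and 34.6% at ranks 3001 to 10000, and 6.10% and 8.21% at ranks 20001 to 30000. Support therefore followed rank closely, and within bands neither region was always higher. By neighbour, support was 28.6% for members near a coding 5′ end only, 28.1% near both kinds, 25.8% near a piRNA 5′ end only and 22.0% near neither. Calls were also denser in the clusters, and the part of that density in this share was not tested.

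In 100-kb steps along the clusters, call counts moved with piRNA genes. Over the 62 steps, pooled calls ranged from 22 to 61 with a median of 38. Spearman's rho between calls and piRNA genes was 0.61 in the pooled list, 0.73 in replicate 1 and 0.38 in replicate 2. Against GC content it was -0.45, -0.49 and -0.19, and against protein-coding genes -0.36, -0.42 and -0.20. These are descriptions across steps that share a library, a depth and trends in base composition, and no p is given. Within the smaller cluster alone the rho with piRNA genes in the pooled list was 0.41 over 25 steps, and within the larger one 0.49 over 37. In replicates 1 and 2 it was 0.65 and 0.27 in the smaller cluster, and 0.61 and 0.37 in the larger one.

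Genes for piRNA transcription and processing were looked at for calls of their own. The list named 16 genes, of which 14 were matched in the annotation. Of these 14, 4 had a pooled call within 500 bp of their 5′ end, beside 31.2% of all 19973 nuclear protein-coding genes, and none had a thresholded call, beside 1.17%. The 4 were henn-1, the piRNA methyltransferase gene, with a best rank of 3108, tofu-5 with 14319, parn-1, the gene of a 3′ trimming nuclease, with 21615, and pid-3 with 23995. The genes for SNPC-4, PRDE-1, TOFU-4 and the Piwi protein PRG-1 had no pooled call there.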

How the data were processed

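ChIP-seq call lists of 2 biological replicates were used as the authors deposited them, on ce11, with the ce10 lists as an alternative. The deposited signal value of each call is the peak caller's own measure, its scale was not stated, and it served only to rank calls within a list. Per the deposited file notes, lists were derived from alignments and 1 control file, and the thresholded set by IDR. The aligner, the caller and the IDR cutoff are not given in the sources used here.

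Summits were compared with 5′ ends in the Ensembl release 115 annotation of WBcel235 (ce11), using Python 3.11.15, numpy 2.4.6, pandas 2.3.3 and scipy 1.17.1. No filter was applied to calls. GC weighting gave each 1% step of GC content the share of windows it had in the rest of chromosome IV. Cluster membership and the share of summits within 200 bp of a piRNA 5′ end were checked on simulated calls. Calls named in the text were every thresholded member, the 5 strongest in each cluster, the 5 strongest whose nearest 5′ end was that of a piRNA gene within 500 bp, and the 3 strongest in the rest of chromosome IV. Members and gene lists were chosen with earlier results of these data known. The pathway names tofu-3 and prg-2, were not matched and were not used here.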

Additional observations from a re-analysis of the deposited data

How the results depend on the processing

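The differences below are clusters minus the rest of chromosome IV. No leave-one-replicate value exists for replicate support, which needs both. No paired analysis was possible because there is 1 group and no test.

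Call density (105 calls per Mb) kept its direction under all 13 alternatives: 61.8 to 95.6 in single replicates, 66.1 and 132.0 in the smaller and larger cluster, 35.4 with the strongest 5000 calls (82.9 against 47.5 calls per Mb, beside 394.5 against 289.1 with all calls), and 29.1 with GC weighting, which was chosen after seeing the data.

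The median rank percentile (-5.71, negative where cluster calls were stronger) was -1.77 to -1.70 in single replicates, -5.955 and -6.005 with bounds moved inward and outward, -2.72 and -7.55 in the smaller and larger cluster, -3.75 against the sequence between clusters, -4.90 against other autosomes, -5.93 with overlapping calls merged and -5.13 on ce10. It turned to 6.58 with the strongest 5000 calls, and the cause was not tested.

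The share within 500 bp of a piRNA 5′ end (71.3 points) was 68.6 to 71.4 in single replicates, 65.9 with bounds outward, 55.0 and 80.6 by cluster, 74.5 against autosomes, 68.9 with the strongest 5000, 58.3 at 200 bp, 74.2 at 1000 bp and 74.7 away from coding 5′ ends. Within 500 bp lay 61.9% of cluster bases and 3.35% of bases in the rest. Most of this difference was therefore set by where piRNA genes lie, before any call was placed.

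The coding share (-8.52 points) was -8.15 to -7.77 in single replicates, -8.09 and -6.83 with bounds inward and outward, -4.55 and -10.8 by cluster, -12.1 against the sequence between clusters, -8.99 against autosomes, -17.16 with the strongest 5000, -7.89 merged, -4.23 at 200 bp and -13.3 at 1000 bp. It turned to 3.56 away from piRNA 5′ ends, and the cause was not tested.

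Replicate support (2.47 points) was 0.912 and 3.36 by cluster, 0.679 with the strongest 5000, 0.813 at 100 bp, 4.20 at 500 bp and 1.30 for replicate 1 alone. Depth is unknown, so nothing here can be read against it.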

Other observations

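The piRNA genes outside the clusters had calls as well. In the rest of chromosome IV, a pooled call lay within 250 bp of 113 of 510 piRNA genes, or 22.2% (exact binomial interval 18.6 to 26.0), and on the other chromosomes of 116 of 649, or 17.9% (15.0 to 21.04), against 26.9% (26.2 to 27.7) in the clusters. All sequence held 289 calls per Mb in the rest of chromosome IV, 292 on the other autosomes and 394.5 in the clusters. How often a stretch of that size holds a call wherever it lies was not computed, so these shares of genes alone show no excess at piRNA genes. In the rest of chromosome IV the share was 32.3% for 161 genes with the upstream octamer and 17.5% for 349 without it in the pooled list, 35.4% and 21.8% in replicate 1, and 25.5% and 17.19% in replicate 2. On the other chromosomes the order was the opposite, with 13.6% for 44 genes with the octamer and 18.2% for 605 without it in the pooled list, 6.82% and 19.2% in replicate 1, and 6.82% and 16.0% in replicate 2. The shares with the octamer there rest on only 6, 3 and 3 genes. Their intervals were wide, 5.17 to 27.4 in the pooled list and 1.43 to 18.7 in each replicate. In the clusters the order differed between replicates. Sequence of the rest of chromosome IV within 200 bp of a piRNA 5′ end held 370 calls per Mb in the pooled list, 523 in replicate 1 and 388 in replicate 2, from 63, 89 and 66 calls. At 501 to 1000 bp it held 348, 351 and 324 calls per Mb in the same lists, and beyond 1000 bp 286, 285 and 297. These densities were not weighted for GC content.

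On the other chromosomes, 5 of 649 piRNA genes, or 0.770% (interval 0.251 to 1.92), had a thresholded call within 250 bp. It was 1 of 14204 in the clusters and 0 of 510 in the rest of chromosome IV. All 5 were among the 605 genes without the octamer. Of all nuclear protein-coding genes, 1.17% had a thresholded call within 500 bp. Neighbouring piRNA genes can share a call, and the distance of these calls from coding 5′ ends is not given here.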
